A study of Mus musculus with 20 samples.

Results

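Transient regions that bind SOX17 are stretches of the mouse genome to which GATA6 was recruited early after its induction in ES cells and which it later left, and at which SOX17 was found bound. They number 2631 of the 42403 GATA6 regions in the deposited table, 2631 of its 16285 Transient regions and 2631 of its 18861 regions with a SOX17 peak. Members were chosen by measured values: the Transient class comes from k-means clustering of input-normalised GATA6 ChIP-seq over all time points, and the SOX17 class from peak calls. Neither value is tested below. The measurement described here is chromatin accessibility by ATAC-seq, which cuts and tags DNA that nucleosomes leave exposed, and which took no part in the rule. Since both classes were deposited as categories, there is no threshold beside which single members could be placed.

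GATA6 is the zinc finger factor that starts primitive endoderm (PrE) differentiation, and SOX17, an HMG-box factor, is one of its early targets. OCT4, SOX2 and ESRRB, here pluripotency TFs (PTFs), hold the ES cell state. OCT4 binds DNA beside a SOX partner: a base lies between the SOX and the OCT letters of the canonical composite motif, while SOX17 prefers a compressed form that lacks this base. A region that GATA6 visits and leaves can therefore be one that served PTFs before, or one that was opened only during the transition.

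KH2 ES cells (C57BL/6 x 129/Sv) with a doxycycline-inducible Gata6 cassette gave 17 samples: 3 without doxycycline (d0), 3 each titled 8 h, 16 h, day 1 and day 2, and 2 titled day 4. XEN cells, an extraembryonic endoderm line (X10, wild type, CD1), were not induced and gave 3 samples. All cells grew with serum on inactivated fibroblast feeders, which were removed by adsorption before the assay, the ES cells with LIF and the XEN cells without. The cassette was an expression transgene in clones of 1 parental line, and the XEN line has another genetic background, so the line and the cell state cannot be told apart in that comparison. The hours of doxycycline in the treatment labels differ from the titles, 16 h against 8 h and 72 h against day 2 for example, and the titles were used. In bulk samples, fewer cells with an open region and less opening per cell cannot be told apart, and RNA was not analysed here.

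Values are RPM, reads scaled to the size of the library and not divided by the width of the region. The table holds an average per group. Whole reads of 16 single libraries (3 per group from 8 h to day 2, 2 at day 4, 2 for XEN) were recovered at 24753 regions, 1626 of them members (61.8%). The d0 average could not be resolved, so libraries were compared with 8 h. No member on chromosomes 3, 14, 15, 16, 17, 18, 19 or X has recovered reads, and 2 of 190 on chromosome 2 do. The scale put library sizes at 181 M to 288 M reads, with 43.3 M for 1 XEN library. Their median count in a member was between 29 and 98 reads, and 4 in that XEN library. Within a group the summed signal of all recovered regions also differed, from 2794 to 5141 RPM at 8 h.

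Stretches of the regions that carry the results are shown first, read from GRCm38 (mm10). The first 2 lie in Transient SOX17 regions with ectopic PTF binding that rose to day 2, and hold the compressed OCT-SOX letters TTGTATGC, in capitals. Regions are named by the nearest protein-coding gene, which need not be their target. These sites and the next 3 were picked for their letters after the values were seen.
Wwp2, chr8:107476932-107476971, minus strand, intron: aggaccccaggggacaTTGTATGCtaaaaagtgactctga
Jakmip3, chr7:138967492-138967531, plus strand, intron: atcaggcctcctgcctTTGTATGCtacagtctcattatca
The next 3 lie in members bound by PTFs at d0 that fell from day 2 to day 4, and hold the canonical spacing TTGTNATGC, in capitals.
Rapgef5, chr12:117235340-117235380, minus strand, intron: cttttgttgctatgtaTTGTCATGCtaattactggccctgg
Grik2, chr10:49417332-49417372, minus strand, intron: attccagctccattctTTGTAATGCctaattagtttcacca
Olfr510, chr7:108662567-108662607, minus strand, intergenic: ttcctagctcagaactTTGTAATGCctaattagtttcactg
The stretches at Grik2 and Olfr510 are identical at 32 of 41 positions, against 16 of 41 between Rapgef5 and Grik2.

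Longer stretches show how the deposited best motif matches, in capitals, lie around the GATA6 summit of regions named by a rule. In the Zfp804b region, the largest gain to day 2 among PTF-bound members, the GATA6 match at bases 73 to 85 is followed by a SOX17 match at 120 to 128 that overlaps an OCT:SOX match at 122 to 136. The Atp2b2 region, the largest gain among members without PTF, holds a SOX17 match on the minus strand and no GATA6 match. In the H2afy region, the largest fall to day 4 among PTF-bound members, a weak GATA6 match (score 6.96) is followed by an OCT:SOX match. The Ints10 region, the largest fall among members without PTF, has a strong GATA6 match (score 12.7).
Zfp804b, chr5:6676240-6676385: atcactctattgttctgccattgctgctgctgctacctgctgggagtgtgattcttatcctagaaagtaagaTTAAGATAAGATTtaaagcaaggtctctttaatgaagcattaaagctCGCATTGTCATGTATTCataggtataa
Atp2b2, chr6:114012833-114012940: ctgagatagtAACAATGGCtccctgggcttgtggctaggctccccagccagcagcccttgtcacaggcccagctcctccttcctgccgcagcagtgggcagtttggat
H2afy, chr13:56143287-56143440: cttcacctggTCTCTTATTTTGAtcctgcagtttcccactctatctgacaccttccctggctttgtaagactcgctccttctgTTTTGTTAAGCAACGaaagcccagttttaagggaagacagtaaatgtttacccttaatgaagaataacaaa
Ints10, chr8:68776980-68777060: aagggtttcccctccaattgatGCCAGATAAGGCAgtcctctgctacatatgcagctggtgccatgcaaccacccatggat

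The median accessibility of Transient SOX17 regions was highest at day 2, was back near the d0 level at day 4 and was lower still in XEN cells. Their median was 0.218 RPM at d0 and 0.206 RPM at 8 h, stood at 0.236 RPM at 16 h and 0.313 RPM at day 1, and reached 0.415 RPM at day 2. It had returned to 0.210 RPM at day 4, and XEN cells had 0.122 RPM. Against d0, the median on the log2(RPM + 0.03) scale changed by 0.84 to day 2, by -0.05 to day 4 and by -0.71 to XEN cells. Among the ES cell groups, XEN cells left aside, the highest average was at day 2 for 1814 of the 2631 regions (68.9%) and day 1 for 457 (17.4%), while 165 (6.27%) were highest at day 4. Over all regions 45% were highest at day 2 and 28.0% at day 4 in the same groups. Of the SOX17 regions that keep GATA6 binding (Early&Constant), 77.2% were highest at day 2 and 17.6% at day 4.

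The median member by library was 0.211 ± 0.0668 RPM at 8 h (SD, n = 3), between 0.15 and 0.282. It was 0.237 ± 0.0898 RPM at 16 h (n = 3) and 0.316 ± 0.1 RPM at day 1 (n = 3). At day 2 it was 0.418 ± 0.0651 RPM (n = 3), between 0.345 and 0.472, so that the day 2 libraries all lay above those of 8 h. At day 4 both libraries were close to 0.212 RPM, and in XEN cells both were close to 0.117 RPM. In the shallow XEN library a read counts for 0.0231 RPM, and the median member had 4 reads beside the 1 read added to each region. How close the XEN libraries were is thus known only coarsely. The libraries of 8 h, 16 h and day 1 overlapped in range.

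**Figure D1:**
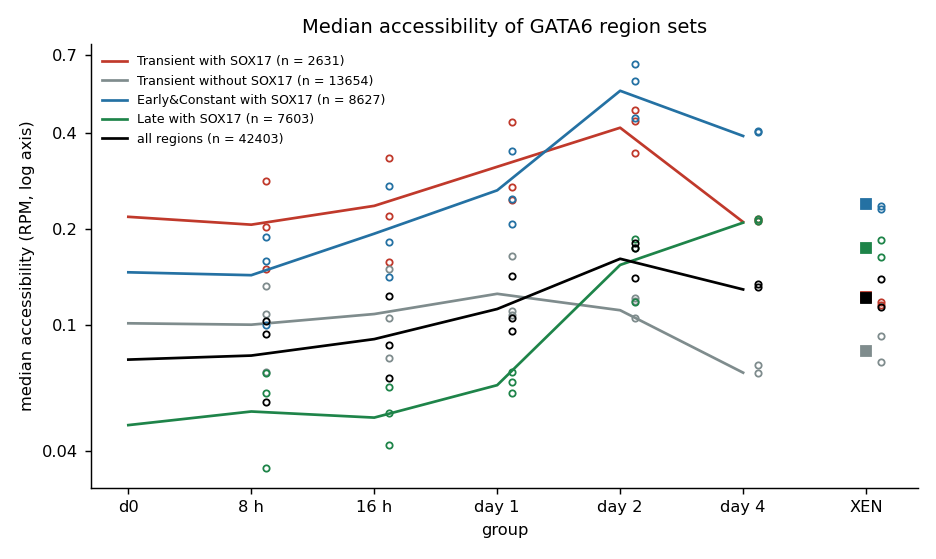
Median accessibility (RPM, log axis) of Transient regions with SOX17 and of 4 comparison sets in each group. Lines and squares are the deposited averages over all regions of a set, and open circles are single libraries at the regions with recovered reads. The Transient SOX17 regions start highest, peak at day 2 and end near the level of all regions in XEN cells.

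Other GATA6 regions moved too, which bears on the gain to day 2. The median of all regions rose by 0.83 on the log2 scale from d0 to day 2, as much as that of the Transient SOX17 regions, and by 0.56 to day 4. Centred on all regions, the members' change was 0.01 at day 2, -0.61 at day 4 and -1.2 for the XEN line. Within the 14 induced libraries, the members' median was 0.58 to 1.42 above that of all recovered regions on the log2 scale, with 0.59 and 0.58 at day 4 and 0.90 or more in every earlier library. In the XEN libraries the difference was 0.03 and -0.21. Members took 10.8% to 13.0% of the signal in recovered regions in libraries up to day 2, 8.48% and 8.54% at day 4, and 6.71% and 5.96% in XEN cells. The fall after day 2 was thus seen in either scaling, while the gain of the median to day 2 was close to that of all regions. Taken region by region, the median change to day 2 was 0.85 in members and 0.69 over all regions against d0, and 0.92 and 0.67 against 8 h.

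At 16 h no member passed the test against 8 h in either direction (limma, Benjamini-Hochberg adjusted p under 0.05 over all 24753 regions and a log2 change above 1), where 0.00404% of all regions were higher and 0.00404% lower. Weighting the recovered reads by voom gave 0 as well. Without adjustment 86 members (5.29%) had p under 0.05, 74 of them higher, against 6.1% of all regions. At day 1, 140 members (8.61%) were higher and 0 lower, against 5.45% and 0.0162% of all regions. This count rested on single libraries, falling to 7 without day 1 library b (0.582% of all regions), 64 without day 1 library c (2.5%), 16 without 8 h library c (0.703%) and 92 without 8 h library a (4.07%). It was 261 without 8 h library b (9.09% of all regions). At day 2, 750 of the 1626 tested members (46.1%) were higher and 5 (0.308%) lower, against 36.9% and 1.15% of all regions. With the least accessible regions left out of the fit, 719 members were higher, 44.2% of the 1626. Of all regions kept in that fit 45.7% were higher, so the members' larger share was not seen there. Among Transient regions without SOX17, 11.8% were higher and 3.33% lower at day 2. Centred on the median of all regions, 219 members (13.5%) were higher and 121 (7.44%) lower at day 2, against 14% and 13.6% of all regions. With quantile normalisation more were lower (196, 12.1%) than higher (157, 9.66%), against 10.3% and 11.6% of all regions.

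From day 2 to day 4, 498 members (30.6%) fell and 1 (0.0615%) rose, against 8.73% and 2.0% of all regions and 13.2% and 0.0246% of Transient regions without SOX17. Leaving out either day 4 library brought the falls to 99 or 102 (1.2% and 1.33% of all regions), and leaving out day 2 library b or c to 236 or 264 (3.43% and 4.03% of all regions). With centring 325 members and 4.61% of all regions fell. Day 4 against 8 h split the members: 282 (17.3%) were higher and 207 (12.7%) lower, where 30.5% of all regions were higher and 6.59% lower. With centring 95 were higher (5.84%) and 401 lower (24.7%), against 16.2% and 15.6% of all regions. Without day 4 library b 179 were higher (25.6% of all regions), without day 4 library a 128 were lower (4.8% of all regions), and without 8 h library b 135 were lower (4.43%). In XEN cells 406 members (25.0%) were lower than at day 4 and 8 (0.492%) higher, against 12% and 5.55% of all regions. The same share of Early&Constant SOX17 regions was lower (25.0%), and 15.1% of SOX17 regions bound only late (Late). Without the shallow XEN library 169 members were lower (5.15% of all regions), and without either day 4 library 185 or 152 (5.2% and 4.28%). Comparisons that share a group of libraries are not independent of each other.

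**Figure D2:**
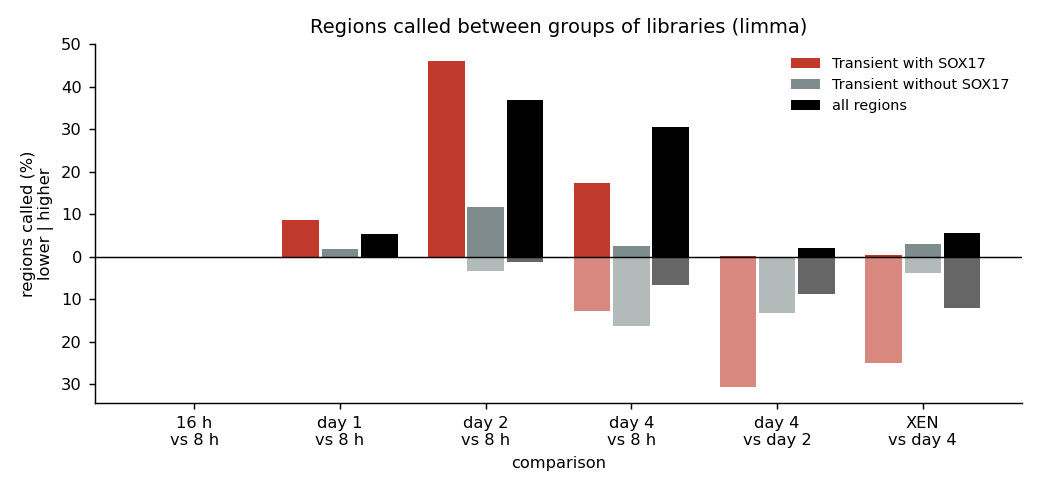
Share of regions called higher (above 0) or lower (below 0, paler bars) by limma in 6 comparisons, for Transient regions with SOX17 (1626 tested), Transient regions without SOX17 (8118) and all regions (24753). The Transient SOX17 regions were called higher at day 2 in 46.1% and lower from day 2 to day 4 in 30.6%.

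The averaged columns allow a count against d0 over all 2631 members, with no replicate check. At day 2, 1103 members (41.9%) were past a 2-fold gain and 14 (0.532%) past a 2-fold loss, against 36.8% and 1.41% of all regions. At day 4 the counts were 385 (14.6%) and 371 (14.1%), against 31.0% and 7.27%. In XEN cells 47 (1.79%) were past a 2-fold gain and 793 (30.1%) past a 2-fold loss, against 27.7% and 8.83%. Of Early&Constant SOX17 regions, 73.9% were past a 2-fold gain at day 2 and 54.6% at day 4, and of Late SOX17 regions 53.6% and 71.7%. The difference between these shares was not tested.

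PTF binding divides the Transient SOX17 regions into groups of different course. At d0, 1348 (51.2%) were bound by PTFs, 533 (20.3%) gained PTFs ectopically during induction, and 750 (28.5%) had no PTF peak. Over all regions these shares were 20.8%, 16.6% and 62.6%. Members bound at d0 started open, at a median of 0.301 ± 0.0998 RPM at 8 h (SD, n = 3), and ended at day 4 with libraries at 0.206 and 0.208 RPM. Ectopic members started at 0.126 ± 0.0360 RPM (n = 3), reached 0.462 ± 0.0855 RPM at day 2 (n = 3) and were at 0.241 and 0.251 RPM at day 4. Members without PTF went from 0.129 ± 0.0443 RPM (n = 3) to 0.323 ± 0.0632 RPM (n = 3) and stood at 0.201 and 0.203 RPM at day 4. At 8 h the class bound at d0 thus stood above the others. At day 4 the ectopic class was the highest at regions with recovered reads, and the libraries of the other 2 lay between 0.201 and 0.208 RPM. Over all members the averaged day 4 medians were close, at 0.219 RPM for the ectopic class and 0.209 RPM for each of the others.

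The calls by class show the same courses. At day 2, 252 of 341 ectopic members (73.9%) were higher than at 8 h, 239 of 476 without PTF (50.2%) and 259 of 809 bound at d0 (32.0%). The share of all regions was 36.9%. From day 2 to day 4 the class bound at d0 came first, with 347 falls among members bound at d0 (42.9%), 79 among ectopic members (23.2%) and 72 among those without PTF (15.1%). Against 8 h, 195 of the members bound at d0 were lower at day 4 (24.1%) and 42 higher (5.19%). Of the ectopic members 120 were higher (35.2%) and 2 lower. Over all regions 6.59% were lower and 30.5% higher, near the ectopic share. Without SOX17, 40.4% of Transient regions bound at d0 were lower, and 6.39% of the ectopic were higher. Transient regions of the same PTF class but without SOX17 gained less often at day 2: 2.62% of those bound at d0, 39.3% of the ectopic and 13.5% of those without PTF. These regions were also less accessible from the start, at 0.175 ± 0.0508 RPM at 8 h (n = 3) in the class bound at d0. Their calls thus rest on fewer reads. In that class the direction differed too: 182 of 2294 (7.93%) were lower at day 2 and 60 higher. The median log2 change there was -0.22, against 0.60 in members bound at d0. Differences between classes were not tested.

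**Figure D3:**
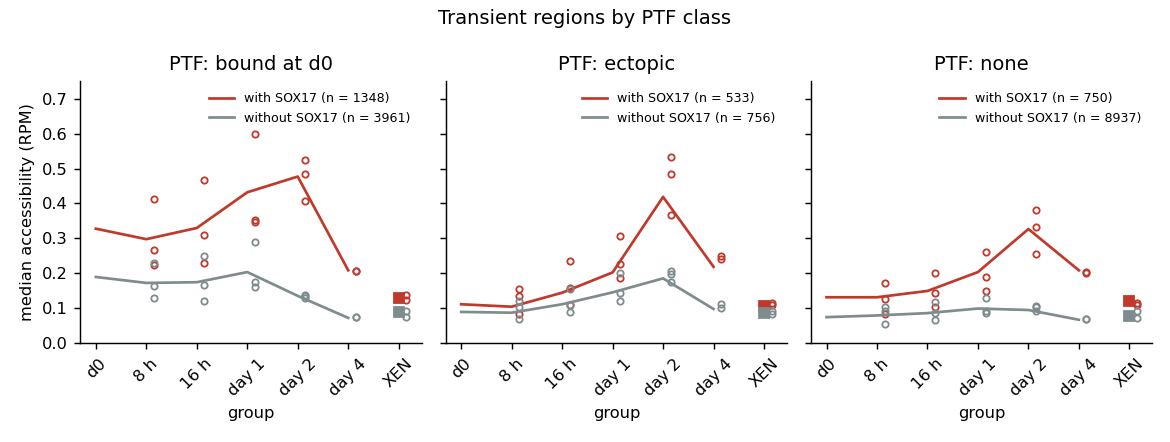
Median accessibility (RPM) of Transient regions with SOX17 (red) and without (grey) by PTF class. Lines and squares are the deposited averages over all regions of the class, and open circles are single libraries at regions with recovered reads. With SOX17, the ectopic class reached libraries between 0.367 and 0.534 RPM at day 2.

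Regions that gained most to day 2 were closed or moderately accessible at d0. At Zfp804b (bound at d0; 200 kb from the start of a zinc finger gene) the libraries read 0.169, 0.183 and 0.147 RPM at 8 h, 0.935, 1.67 and 1.41 at day 2, 0.598 and 0.716 at day 4 and 0.0416 and 0.0693 in XEN cells. All day 2 libraries lay above all libraries of other groups, with a log2 change of 2.77 ± 0.35 (SE) from 8 h (limma, adjusted p = 1.07e-13). From day 4 to XEN cells this region fell by 3.02 ± 0.43 (adjusted p = 2.35e-09).
The ectopic region at Tgfbr1, which encodes a TGF-beta receptor, went from 0.0891, 0.0470 and 0.0285 RPM at 8 h to 0.690, 1.23 and 0.915 at day 2 and 0.392 and 0.529 at day 4. Its change to day 2 was 3.55 ± 0.34 (limma, adjusted p = 2.99e-22), the largest among tested members of the ectopic class. In XEN cells it was back at 0.0763 and 0.0462 RPM, within the range of 8 h.
In an intron of Atp2b2, a plasma membrane calcium pump gene, the region without PTF rose from 0.0375, 0.0611 and 0.0475 RPM to 0.730, 1.02 and 0.804 at day 2, a change of 3.48 ± 0.34 (limma, adjusted p = 1.31e-21). The Grip2 region, in an intron of Slc6a6, changed by 3.48 ± 0.34 as well, from 0.0938, 0.0846 and 0.0332 RPM to 0.769, 1.35 and 1.09. The day 2 libraries lay above those of 8 h, 16 h and day 1 at both loci. The remaining gains of this kind, at Dysf, Gm11983, Fam189a1, Nsg2 and Hmga2, were between 2.67 and 3.28 on the log2 scale.

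All 9 regions with these gains were also called higher at day 4 than at 8 h, by 1.55 to 2.82 on the log2 scale. Over all members 282 were called higher at day 4 and 750 at day 2. The largest changes from 8 h to day 4 were at Hmga2 (a chromatin architectural protein), Abcc12 (a transporter) and Tent4a (a poly(A) polymerase). The Hmga2 region, intergenic and without PTF, read 0.0469, 0.0188 and 0.0142 RPM at 8 h, 0.280, 0.634 and 0.717 at day 2, and 0.342 and 0.374 at day 4. Its day 4 libraries lay within the range of day 2 and above all of 8 h, with a change from 8 h of 2.82 ± 0.37 (limma, adjusted p = 2.2e-12). The change from 8 h to day 4 was 2.79 ± 0.38 at Abcc12 and 2.69 ± 0.39 at Tent4a. In XEN cells the Tent4a region fell by 2.96 ± 0.42 (adjusted p = 3.19e-09), to 0.156 and 0.0462 RPM, whereas that at Abcc12 read 0.173 and 0.231 RPM and did not pass the test (adjusted p = 0.0793).

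Among the regions that lost most from day 2 to day 4, those bound by PTFs at d0 began more open, with some overlap between classes. The H2afy region, upstream of a macroH2A histone gene and bound by PTFs at d0, read 0.745, 1.02 and 0.555 RPM at 8 h, 0.760, 0.996 and 0.872 at day 2, and 0.111 and 0.123 at day 4. It was thus open from the start and fell by 2.62 ± 0.40 on the log2 scale after day 2 (limma, adjusted p = 2.89e-07). Cdk5r2 and Mterf1a, the next 2 of this class, had the same course, with changes of -2.58 ± 0.40 and -2.44 ± 0.39.
In an intron of Clstn2, a calsyntenin gene, the ectopic region read 0.0984, 0.0564 and 0.0427 RPM at 8 h, 0.450, 0.753 and 0.658 at day 2, and 0.106 and 0.0962 at day 4. This region rose by 2.77 ± 0.34 (limma, adjusted p = 1.05e-14) and then fell by 2.28 ± 0.38 (adjusted p = 3.12e-06), so that day 4 was near 8 h. At Megf6 and Shank2 the change from day 2 was -2.39 ± 0.39 and -1.81 ± 0.39. The Megf6 region was moderately accessible at d0 and read 0.253, 0.329 and 0.190 RPM at 8 h. This overlapped the PTF-bound Mterf1a region, at 0.370, 0.682 and 0.290 RPM.
Without PTF, the region at Ints10, an Integrator subunit gene, read 0.0844, 0.0846 and 0.0712 RPM at 8 h, 0.297, 0.433 and 0.329 at day 2, and 0.0854 and 0.0321 at day 4. It fell by 2.16 ± 0.37 after day 2 (limma, adjusted p = 1.16e-05). At Atp6ap1l and Rfx6 the change was -1.88 ± 0.38 and -1.69 ± 0.36, the latter call being lost without day 4 library a (-1.39).

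**Figure D4:**
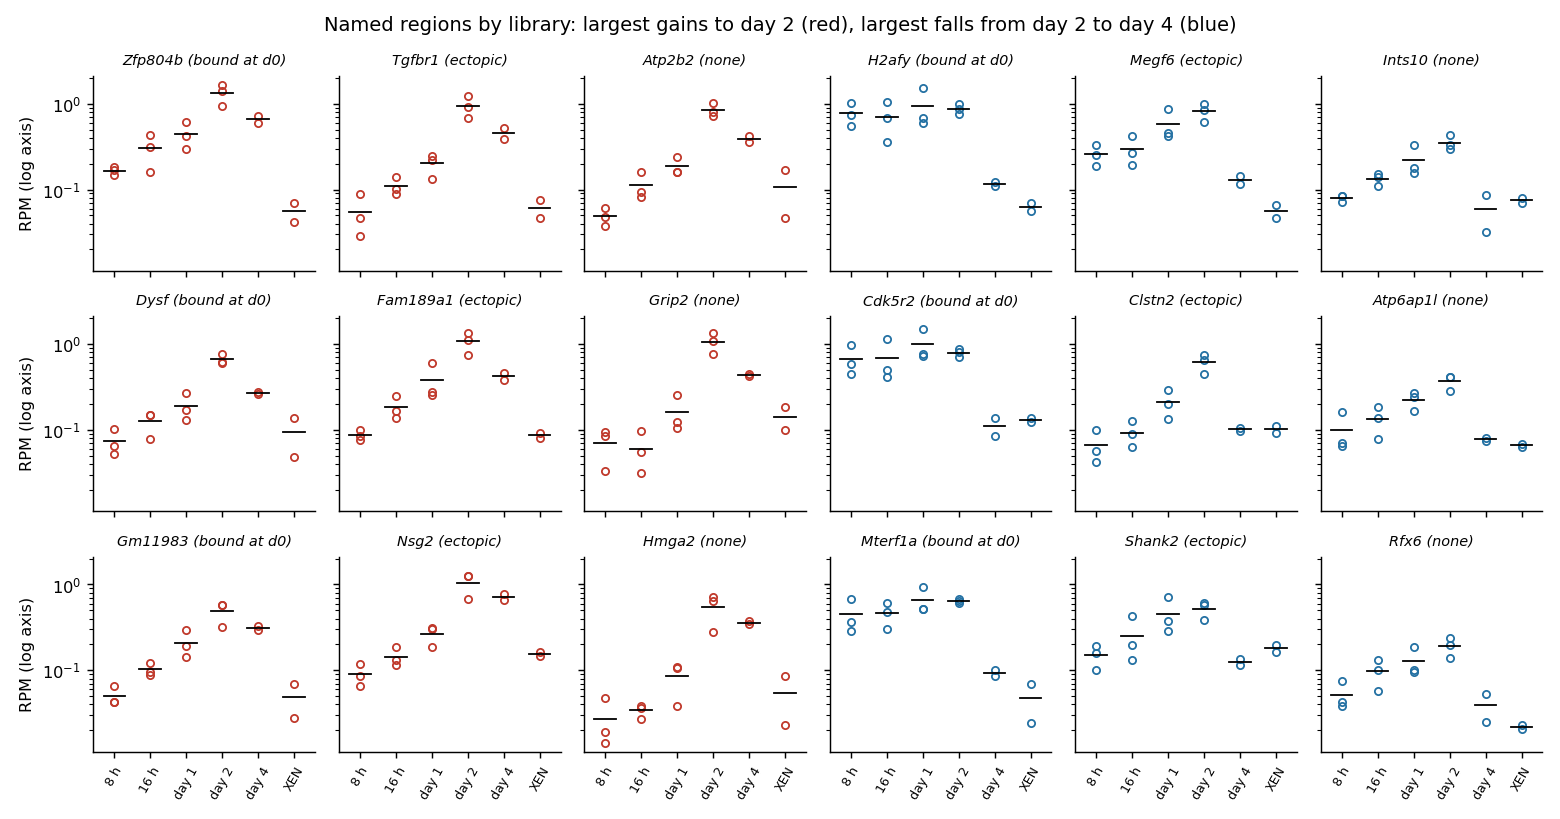
Accessibility (RPM, log axis) of 18 Transient SOX17 regions in each recovered library (open circles) with group means (lines). Red regions had the largest gains from 8 h to day 2 in each PTF class, blue regions the largest falls from day 2 to day 4; PTF-bound blue regions were open already at 8 h, at 0.290 RPM or more in every library.

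The sites with the 2 OCT-SOX spacings shown above were picked from regions with these courses. Their values are examples and do not test the letters. The Wwp2 site, in a ubiquitin ligase gene, read 0.141, 0.221 and 0.0475 RPM at 8 h and 0.730, 1.38 and 1.00 at day 2, a rise of 2.79 ± 0.35 (limma, adjusted p = 5.02e-14). The Jakmip3 site rose by 2.65 ± 0.33. Of the canonical sites, that at Grik2 read 0.473, 0.729 and 0.460 RPM at 8 h, 0.389, 0.476 and 0.407 at day 2, and 0.116 and 0.102 at day 4. Open at the start, it fell by 1.71 ± 0.39 after day 2 (limma, adjusted p = 0.00114).

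Letters in the 300 bases around the GATA6 summit, searched on both strands, set the classes side by side on a fixed length. The compressed letters TTGTATGC were in 56 of 2631 members (2.13%), against 1.03% of all regions and 0.593% of Transient regions without SOX17. In ectopic members they were in 27 (5.07%), where all ectopic regions held them in 2.50%, and in members bound at d0 in 26 (1.93%). The canonical TTGTNATGC had the opposite split, with 73 members bound at d0 (5.42%) and 4 ectopic members (0.750%), against 1.81% of all regions. Of the 35 tested members with the compressed letters, 23 (65.7%) were higher at day 2, and of the 48 with the canonical letters, 7 (14.6%). Over all regions with the same letters these shares were 56.5% and 17.9%, so the contrast was not one of the members alone. From day 2 to day 4, 13 of the 35 (37.1%) and 21 of the 48 (43.8%) fell, against 13.0% and 21% of all regions with the letters. Few members hold either string, and a match is no binding site.

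The GATA core AGATAAG was in 17.4% of members, 32.0% of Transient regions without SOX17 and 29.7% of all regions. Of Late SOX17 regions 18.2% held it, near the share of members, and of Early&Constant SOX17 regions 36.7%. The SOX letters CCATTGT were in 15.6% of members, against 5.92% of Transient regions without SOX17 and 10.7% of all. These letters bear on the rule itself, since members were chosen for a SOX17 peak. The ESRRB letters TCAAGGTCA were in 1.98% of members (1.57% of all), the KLF letters CCACACCC in 6.69% (5.82%), the AP-1 letters TGACTCA in 7.68% (10.1%) and the FOX letters TGTTTAC in 5.93% (7.93%). In Transient regions without SOX17 these shares were 2.85%, 6.6%, 7.76% and 4.64%. The deposited best GATA6 match scored a median of 9.26 in the 2154 members that have one (81.9%). It was 10.2 over all regions, 11 at Early&Constant SOX17 regions and 9.27 at Late SOX17 regions. A SOX17 match was found in 79.7% of members, with a median score of 9.77, and an OCT:SOX match in 73.4%. Members were 627 bp wide in the median (524 bp over all regions), and wider regions have more room for a match.

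Motif scores followed the course of accessibility weakly. With members split into 3 groups by GATA6 score, 39.2% of the highest and 48.9% of the lowest group were higher at day 2 than at 8 h, and 52.8% of those without a GATA6 match. For SOX17 scores the shares were 42.7%, 50.0% and 51.7%. Spearman's rho between the score and the change to day 2 was -0.10 for GATA6 (1355 members), -0.06 for SOX17 (1299) and -0.23 for OCT:SOX (1175), across regions that share their libraries.

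By position, 1285 members (48.8%) were intergenic, 988 (37.6%) intronic, 36 exonic and 322 (12.2%) within 1 kb of a protein-coding transcription start (GENCODE M21), against 6.56% of all regions in that last class. Members at promoters had gains like the rest and few falls. At day 2, 90 of 201 (44.8%) were higher, against 36.9% of all regions. From day 2 to day 4, 8 (3.98%) fell, against 8.73% of all regions. Of intergenic members 305 of 788 (38.7%) fell, and of intronic members 180 of 614 (29.3%). At day 4, 56 promoter members (27.9%) were higher than at 8 h and 6 (2.99%) lower. The share higher was near that of all regions, of which 30.5% were higher and 6.59% lower. In Transient regions without SOX17, 6.25% of those at promoters fell after day 2. Another member lay within 5 kb of 156 members (5.93%). Among the 13654 Transient regions without SOX17 this share was 15.1%, and among all 42403 regions 36.6%. A larger set holds more neighbours, so these shares do not show whether members are spread more widely.

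Calls also differed between the classes of ES cell histone marks. Active enhancers were the most frequent class, with 679 members (25.8%, against 11.2% of all regions), followed by primed enhancers (489), poised enhancers (448), promoters (446), constitutive (236) and facultative heterochromatin (230) and the class named naive (103). At day 2, 116 of 407 active enhancer members (28.5%) and 97 of 147 in facultative heterochromatin (66%) were higher than at 8 h. Members of the other classes lay between these shares, and 36.9% of all regions were higher. Without SOX17, 5.16% of Transient regions at active enhancers and 15.7% of those in facultative heterochromatin were higher. After day 2, 170 active enhancer members (41.8%) and 31 in facultative heterochromatin (21.1%) fell, against 8.73% of all regions. Members of the promoter mark class fell least often (14.6%). Without SOX17, 25.9% of Transient regions at active enhancers and 7.53% of those in facultative heterochromatin fell. At d0 accessible members (646 of 2631) rose to day 2 in 32.4% of the tested, moderate ones (1324) in 43.0% and closed ones (661) in 65.3%. In Transient regions without SOX17 these shares were 12.5%, 9.94% and 13.6%. That class rests on d0 accessibility itself.

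Knockdown of Oct4 gives a further view, from the deposited class of GATA6 binding change at day 2. Binding was in the decreased class at 460 members (17.5%, against 6.25% of all regions) and in the increased class at 31 (1.18%, against 8.57%). Decreased binding was found at 22.1% of ectopic members, 20.8% of those bound at d0 and 8.13% of those without PTF. Over all regions of the same classes the shares were 12.6%, 13.3% and 2.23%. Of the members in the decreased class, 179 of 292 (61.3%) were higher at day 2, and 171 (58.6%) fell from day 2 to day 4, each counted separately. In the class without change, 567 of 1320 (43.0%) were higher and 327 (24.8%) fell. Transient regions without SOX17 in the decreased class fell in 34.1%. Both the class and the rule rest on GATA6 binding, and the accessibility does not.

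**Figure D5:**
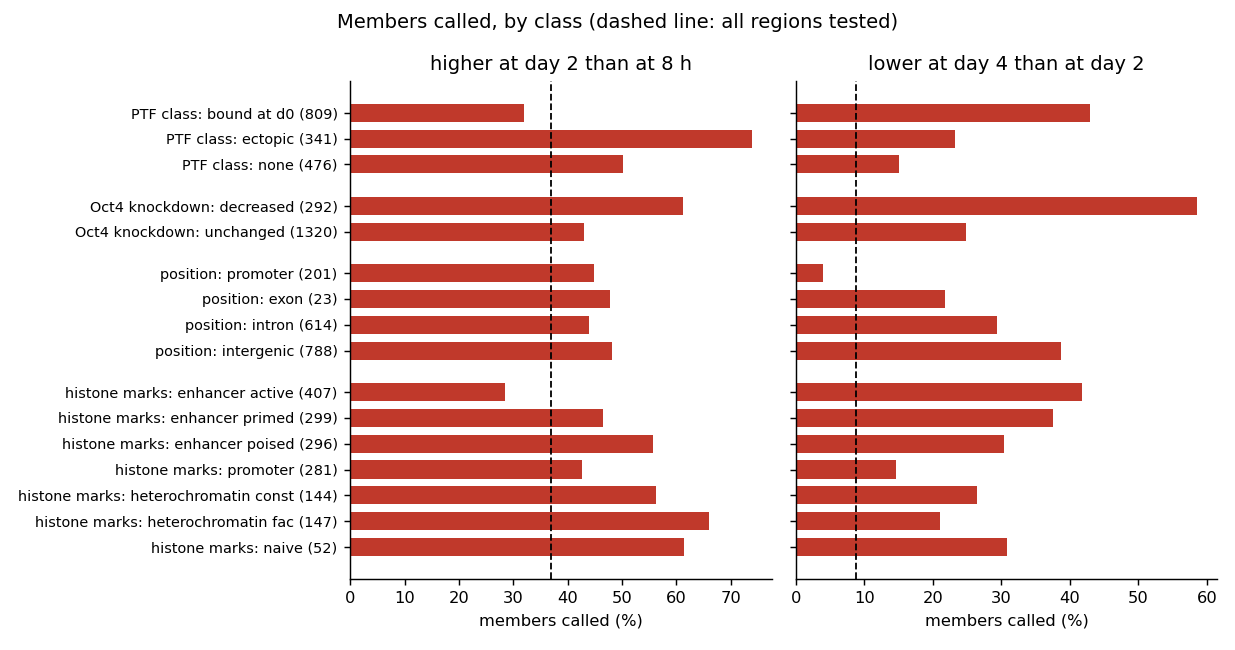
Share of Transient SOX17 regions called higher at day 2 than at 8 h (left) and lower at day 4 than at day 2 (right) by PTF class, Oct4 knockdown class, position and histone mark class, with the number tested in parentheses and the share of all regions as a dashed line. Promoter members were lower at day 4 in 3.98%, under the 8.73% of all regions, and members of the decreased knockdown class in 58.6%.

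Regions nearest to PrE transcription factor genes are described from a list of 16 genes. Of the 14 members at 12 of these genes, 10 had recovered reads, of which 8 were higher at day 2 and 0 lower, and 3 fell after day 2. Over all regions 36.9% were higher and 8.73% fell, and over all members 46.1% and 30.6%. The Sox17 region, intergenic and 74.5 kb from the start of the gene, read 0.403, 0.663 and 0.280 RPM at 8 h, 1.70, 3.14 and 2.79 at day 2, and 1.47 and 1.77 at day 4. It rose by 2.46 ± 0.36 to day 2 (limma, adjusted p = 1.3e-10) and was still 1.86 ± 0.40 above 8 h at day 4 (adjusted p = 2.67e-05). At the promoter of Elf3, an ETS factor gene, the region rose by 1.75 ± 0.36 to day 2 (adjusted p = 7.02e-06), a call lost with centring (0.97). The region at Prdm1, a repressor of transcription, went the other way, from 0.755, 1.14 and 0.646 RPM at 8 h and 0.616, 0.710 and 0.547 at day 2 to 0.151 and 0.128 at day 4. That is a fall of 1.94 ± 0.40 after day 2 (limma, adjusted p = 0.000225). The Klf6 region did not pass the limit of change (0.87 ± 0.35 to day 2). Within an exon of Gata6 the averages were 0.513 RPM at d0, 0.862 at day 2 and 0.909 at day 4, and at the promoter of Hhex 0.332, 0.968 and 0.447, both without library values.

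Of 30 genes for PrE receptors, matrix and secreted proteins, 12 were nearest to 17 members, 11 with recovered reads. Among these 5 were higher at day 2 and 0 lower, a share near that of all members (46.1%), and 1 fell after day 2. The region 2.90 kb upstream of Amn, which encodes a partner of the cubilin receptor, read 0.581, 0.719 and 0.370 RPM at 8 h, 1.74, 3.03 and 2.65 at day 2, and 1.27 and 1.78 at day 4. Its change to day 2 was 2.10 ± 0.36 (limma, adjusted p = 4.37e-08), and in XEN cells, at 0.316 and 0.231 RPM, its log2 change from day 4 was -2.35. A region 148 kb upstream of Fgfr1, a receptor for fibroblast growth factors, read 0.300, 0.677 and 0.275 RPM at 8 h, 0.795, 1.06 and 1.09 at day 2, and 0.206 and 0.187 at day 4. It rose by 1.28 ± 0.35 (adjusted p = 0.00102) and fell by 2.15 ± 0.39 (adjusted p = 3.64e-05); centred on all regions the rise was 0.49 and did not pass. No call was made to day 2 at Apoe (0.21 ± 0.36), Sparc (0.21 ± 0.35), Lamc1 (0.06 ± 0.35) or Cd38 (0.96 ± 0.35).

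Of 37 naive and core pluripotency genes, 26 were nearest to 47 members, 31 with recovered reads. At day 2 11 of these were higher and 0 lower, 11 fell after day 2, and at day 4 7 were lower and 5 higher than at 8 h. The 11 gains are a share near the 36.9% of all regions, and the 11 falls one near the 30.6% of all members. The region 4.86 kb upstream of Nanog read 1.00, 1.49 and 0.726 RPM at 8 h, 1.64, 1.93 and 1.69 at day 2, 0.508 and 0.566 at day 4, and 0.239 and 0.139 in XEN cells. Its values at day 2 lay above those at 8 h with a change of 0.75 ± 0.36 that did not pass (limma, adjusted p = 0.0688), and it fell by 1.65 ± 0.40 after day 2 (adjusted p = 0.00219). The region at Tdgf1, a Nodal co-receptor gene, read 1.13, 1.91 and 1.15 RPM at 8 h, 0.717, 0.729 and 0.804 at day 2, and 0.211 and 0.246 at day 4. Lower at day 2 in every library than in any of 8 h, it fell by 1.59 ± 0.40 from there (adjusted p = 0.00319). The promoter region of Esrrb, an orphan nuclear receptor gene, changed by -0.98 ± 0.40 after day 2 (adjusted p = 0.0915) and fell by 1.60 ± 0.44 from day 4 to XEN cells (adjusted p = 0.00395). At the promoter of Klf4 the values were 0.731, 1.45 and 0.698 RPM at 8 h and 1.71 and 1.81 at day 4, and none of the comparisons with 8 h passed the limit. The averages at the promoters of Klf5 and Spry4 were 0.864 and 1.07 RPM at d0 and 2.13 and 1.76 at day 2.

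Markers of fibroblasts, the feeder cells, were looked at in the same way. Of 14 such genes, 2 were nearest to members, Col3a1 and Col5a2, each with 1 region bound by PTFs at d0. Their averages were 0.296 and 0.180 RPM at d0, 0.251 and 0.268 at day 2, and 0.0721 and 0.0592 at day 4, with no library values. How much feeder DNA the libraries held was not tested.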

How the data were processed

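ATAC-seq of 20 samples was analysed from the authors' table of 42403 GATA6 regions (105 columns). The authors trimmed the reads (cutadapt), mapped them against mm10 (bowtie2), left out duplicates and poorly mapped reads, and counted short fragments in each region with bamsignals. The deposited accessibility values are RPM, scaled to library size and averaged per group, with 1 read added to each region of a library. The authors' motif score per region (FIMO) and their categories served to describe regions. The 52 columns of other per-sample values were not used here.

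The planned test assumed library values. As each average is made of whole read counts with a fixed weight per library, these counts were solved for at the 24753 regions whose values kept more than 12 digits, within 2e-09 reads (checked on simulated data). Libraries carry arbitrary letters, and XEN resolved into 2 although 3 samples are labelled. log2(RPM + 0.03) was fitted in limma 3.58.1 (R 4.3.3; lmFit, contrasts.fit, eBayes with trend), all groups in 1 fit, with Benjamini-Hochberg adjustment over all regions and calls at an adjusted p under 0.05 and a log2 change above 1 in size. This scale understates changes of low regions. The fit was tested on simulated data. Errors beside log2 changes are standard errors. The study's methods describe the samples of a group as separate cultures. Depth is given in the text, and low counts limit the precision most in the shallow XEN library.

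Named regions were, per PTF class, the 3 members with the largest rise from 8 h to day 2 and the 3 with the largest fall from day 2 to day 4 among those called, the 3 with the largest rise to day 4, and per gene list the member with the highest mean at up to 6 genes. Longer sequences come from the first region of a class, none from chromosome 18. Members, gene lists and tests were chosen with earlier results of these data known. Positions and sequences came from GENCODE M21 and GRCm38.p6. Alternatives were other pseudocounts, scalings, filters and weights, and leaving out each library.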

Additional observations from a re-analysis of the deposited data

How the results depend on the processing

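No paired analysis was possible because the table holds averages and the recovered libraries carry no replicate numbers. With a pseudocount of 0.15 RPM fewer members were called: 11 higher at day 1, 413 higher at day 2, 104 higher and 92 lower at day 4 against 8 h, 246 lower from day 2 to day 4 and 212 lower in XEN cells. Of all regions 0.723%, 19.7%, 13.9%, 1.96%, 2.9% and 5.79% were called in these comparisons. Centring each library on the median of all regions gave 1 higher at 16 h, 25 at day 1, 219 at day 2 and 95 at day 4, with 121 lower at day 2, 401 at day 4 against 8 h and 325 against day 2. With centring 0.275%, 1.37%, 14.0% and 16.2% of all regions were higher, and 13.6%, 15.6% and 4.61% lower. Quantile normalisation gave 4, 22, 157 and 88 higher, and 196, 450 and 206 lower, so that at day 2 lower calls outnumbered higher ones. Of all regions 0.38%, 1.21%, 11.6% and 16.3% were then higher, and 10.3%, 15.7% and 2.88% lower. With only the groups compared in the fit, 50 members (3.08%) were higher at day 1, against 2.19% of all regions. Leaving out 1 library gave 7 to 261 higher at day 1, 589 to 919 higher at day 2, 179 to 402 higher and 128 to 277 lower at day 4 against 8 h, 99 to 489 lower from day 2 to day 4, and 152 to 288 lower in XEN cells. Over all regions these were 0.582% to 9.09%, 30.4% to 42.1%, 25.2% to 35.2%, 4.43% to 9.12%, 1.2% to 8.5% and 4.28% to 8.05%. The cause of these differences was not tested.

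The change of the members' median from d0 was 0.07 at day 1 with centring and 0.0 with quantile normalisation. At day 2 it was 0.62 with the pseudocount of 0.15 RPM, 0.01 with centring and, reversed, -0.2 with quantile normalisation. At day 4 it was -0.03, -0.61 and -0.67 under these settings, -0.08 without the least accessible regions and -0.07 over members with recovered reads. In XEN cells it was -0.81 with a pseudocount of 0.006 RPM, -0.44 with 0.15 RPM, -1.2 with centring, -1.21 with quantile normalisation, -0.81 with the lowest value subtracted, -0.76 without the least accessible regions and -0.74 over members with recovered reads. In refits of named regions under these settings, 319 values kept direction and call, 7 lost the call, 11 gained one, and at Lamc1 the change to day 2, 0.06 in the report and not called, was -1.0 with quantile normalisation.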
